A study of Homo sapiens with 2 samples.

Results

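The sites described here are deletion positions that fell inside the longest human protein-coding genes, in RNA precipitated with an antibody to the splicing factor SF3A1. Members were the positions of the pooled list that lay in the body of a RefSeq protein-coding gene of 300 kb or more and in no shorter protein-coding gene. They numbered 289 of the 2960 listed positions (9.76%, 95% Clopper-Pearson interval 8.72 to 10.9) and lay in 156 of the 773 genes of that length. The data come from 2 anti-SF3A1 crosslinking and immunoprecipitation (CLIP) libraries of C4-2B, a prostate cancer cell line of the LNCaP lineage, in a derivative prepared for CRISPR interference. Cells were harvested after 48 h, irradiated at 254 nm with 400 mJ/cm2, and precipitated with 2 µg of antibody. Both libraries carried the same label and were merged by the authors into 1 list, so no control group, no spread between replicates and no test between samples exist. Among 13 prostate luminal markers, 7 held a site, including KLK3 with 4, where 9.85% of all protein-coding genes did; the list holds no expression level against which the line's label could be checked further.

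SF3A1 belongs to the U2 small nuclear ribonucleoprotein (U2 snRNP), the particle that recognises the branch point of an intron early in spliceosome assembly. Genes of this length consist almost entirely of introns, so most of their primary transcript is removed by splicing. They are enriched for genes of neurons, adhesion and signalling, and many are silent in epithelial cells. In CLIP, reverse transcriptase can skip a crosslinked base, and a tag (a unique sequenced fragment) with a deletion can therefore mark the contact of protein and RNA. No control library or genome sequence of the line was compared. Whether a listed deletion marks such a contact or is carried by the line's DNA was therefore not tested.

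For 2 members the bases around the site could be shown, because they lay inside windows around annotated transcription starts given by RefSeq for GRCh38.p14. Each is printed 5′ to 3′ on the plus strand, the strand of the site and of the gene, with 30 bases on either side and the deleted base in capitals. They are shown because these are the only long-gene sites whose sequence could be read here. The first, in SIPA1L1, which encodes a GTPase-activating protein for the small GTPase Rap, is chr14:71438727-71438787. The second, in ZFAND3, a zinc finger gene, is chr6:38122878-38122938.
SIPA1L1: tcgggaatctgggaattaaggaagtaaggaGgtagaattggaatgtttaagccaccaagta
ZFAND3: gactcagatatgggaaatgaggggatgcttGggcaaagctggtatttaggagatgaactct

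Both deleted bases were G, in runs of 2 and 3 equal bases, so each position is exact only to its run. The SIPA1L1 site lay 182 nt upstream of an internal start of that gene, and all of its 57 tags carried the deletion. The ZFAND3 site lay 219 nt upstream of the start of the noncoding gene LOC124901314, and all of its 23 tags carried it. Neither 61-base stretch held CTAAC or CTGAC, pentamers of the branch point type, or TTTTT, searched on both strands. For scale, 14.7% and 15.2% of the first 61 bases of the 35116 start windows held them. Over the whole list, 19 sites lay in such a window; the base on the site's strand was T at 8, G at 7, C at 4 and A at 0, and 13 lay in a run of 2 or more equal bases.

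Long genes took fewer sites than their share of sequence. They made up 34.2% of the protein-coding gene bodies and held 11.2% (10.0 to 12.5) of the 2571 protein-coding sites. Density was lower at each step in gene length, though the intervals of the classes from 300 kb to 1 Mb overlapped. It went from 6.07 sites per Mb (exact 95% Poisson interval 5.52 to 6.66) in genes under 20 kb to 3.13 (2.95 to 3.33) at 20 to 100 kb and 1.82 (1.69 to 1.95) at 100 to 300 kb. It was 0.804 (0.676 to 0.949) at 300 to 500 kb, 0.723 (0.599 to 0.865) at 500 kb to 1 Mb and 0.329 (0.224 to 0.467) at 1 Mb or more. All long genes together held 0.669 sites per Mb (0.594 to 0.751), against 2.75 (2.64 to 2.86) in shorter ones. The intervals cover counting error only, and RNA abundance was not measured, so sparse contact and low expression cannot be told apart.

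The share of genes with a site, in contrast, did not rise beyond its intervals above 100 kb. A site was found in 20.2% (17.4 to 23.2) of long genes, against 9.85% of all 19866 protein-coding genes and 9.43% of those under 300 kb. In genes of 100 to 300 kb it was 20.5% (18.9 to 22.1). By class it was 18.1% of the 458 genes of 300 to 500 kb, 21.5% of the 246 genes of 500 kb to 1 Mb and 29.0% of the 69 genes of 1 Mb or more, with overlapping intervals. Genes with several sites were 54 of the 773 (6.99%), against 2.03% of all protein-coding genes. A long gene with a site held 1.85 sites on average and a shorter one 1.27.

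**Figure D1:**
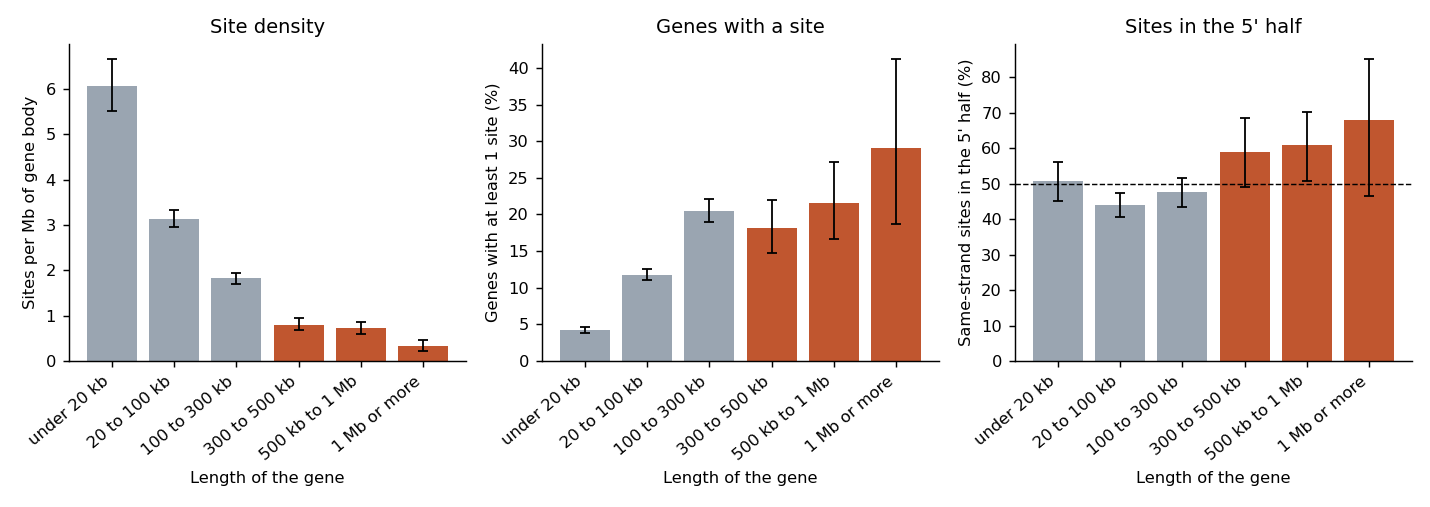
Sites by the length of the gene they fall in: sites per Mb of gene body (left), percent of genes with at least 1 site (middle) and percent of sites on the gene's strand that lie in the 5′-most 50% of its body (right; dashed line at 50%). Bars in orange are genes of 300 kb or more and error bars are exact 95% intervals; density falls from 6.07 to 0.329 per Mb while the share of genes with a site stays near 20% from 100 kb to 1 Mb.

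Long genes differed in how many sites they held. The 15 genes with 4 or more sites held 95 of the 289 sites (32.9%), and 102 genes held 1 site each. Another 25 genes held 2 sites and 14 held 3. Of the 10 longest genes, from CTNNA3 at 1851 kb to RBFOX1 at 2474 kb, only CSMD1 held a site that lay in no shorter protein-coding gene. The other 9, in which a site inside a nested gene was not counted (MACROD2 has 1), were RBFOX1, CNTNAP2, PTPRD, DMD, DLG2, MACROD2, EYS, LRP1B and CTNNA3, which encode among others a splicing regulator, a neuronal adhesion protein and dystrophin. The CSMD1 site also lay in the noncoding gene LOC105377785, and the strand of CSMD1 was unknown here. Only positions that passed the authors' false discovery rate are listed, so an empty gene says nothing of its coverage.

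The 2 long genes with the most sites were ANK3 and PPP3CA. ANK3, which encodes the membrane-cytoskeleton adaptor ankyrin G (chromosome 10, 60026298 to 60733528), held 16 sites, or 22.6 per Mb, all on the minus strand of the gene. Tags over them ranged from 19 to 334, and 10 of the 16 carried the deletion in every tag. PPP3CA, the catalytic subunit of calcineurin (chromosome 4, 101023418 to 101347526), held 10 sites at 30.9 per Mb, the highest density among the 20 long genes with the most sites, spread over 90.7% of its body. LIMCH1, a regulator of non-muscle myosin (chromosome 4, 41359607 to 41700044), held 6. Its sites had 41, 179, 37, 75, 70 and 29 tags from the 5′ to the 3′ end, and only the fifth missed the deletion in any, with 69 of 70.

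NCAM2 and NAALADL2 came next in number with 7 sites each. NCAM2, an immunoglobulin adhesion molecule (chromosome 21, 20998409 to 21543329), held 7 sites over 99.7% of its body. They began at 1.32 kb from the 5′ end, with 94 of 95 tags deleted, and ended at 544 kb with 100 of 100; the other five were complete at 33 to 121 tags. NLGN1, which encodes the postsynaptic adhesion molecule neuroligin, held 5, with 45 of 45, 138 of 139, 106 of 108, 88 of 89 and 59 of 61 tags deleted. Only the first of the NLGN1 sites was thus complete. TENM1, a teneurin, held 4 complete sites on the X chromosome.

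The ephrin receptors EPHA6 and EPHA3, which steer axons and tissue boundaries, held 5 and 4 sites on chromosome 3. Those of EPHA6 had 33 of 34, 91 of 91, 46 of 46, 46 of 46 and 90 of 90 tags deleted. Those of EPHA3 had 49 of 49, 30 of 31, 92 of 101 and 34 of 34. All 9 lay on the plus strand, which is that of both genes.

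Another 4 genes with 4 to 6 sites were PPFIA2, AGAP1, NEDD4L and DOCK1. PPFIA2, the synaptic scaffold liprin-alpha-2, held 6 sites with 17 to 125 tags, of which 5 were complete; 3 of the 6 also lay under annotated noncoding genes. AGAP1, which activates GTP hydrolysis on Arf proteins, held 5 plus-strand sites with 17 to 88 tags. NEDD4L, a ubiquitin ligase of membrane channels (chromosome 18, 58044226 to 58401540), held 5 with 18 of 18, 171 of 171, 18 of 18, 55 of 58 and 46 of 46 tags deleted. DOCK1, an exchange factor for Rac, held 4 with 25 of 25, 27 of 28, 97 of 97 and 21 of 21. The same genes thus held sites that differed several-fold in tags.

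ZNF385B, a zinc finger gene on chromosome 2, held 5 sites in its first 138 kb, and only the thinnest, with 23 tags, was complete. The others had 87 of 88, 155 of 190, 129 of 130 and 184 of 185 tags deleted. IMMP2L, a subunit of a mitochondrial inner membrane peptidase, held 6, which included the lowest deleted share among the long genes. NAALADL2, a relative of the gene of prostate-specific membrane antigen, held 7 sites with 22 to 100 tags, 6 of them complete.

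Genes with 3 sites at the highest density were ARMCX5-GPRASP2, KMT2C, MED13L, PRKD1 and EIF4G3. ARMCX5-GPRASP2 is a readthrough gene on the X chromosome, and all 3 of its sites also lay in the noncoding gene LINC00630 within 42.1 kb. KMT2C, a histone methyltransferase just above the length limit at 301079 nt, had 49, 99 and 33 tags, all with the deletion. PRKD1, a kinase, had 66, 310 and 25, again all deleted. MED13L, of the Mediator kinase module, had 49 of 50, 15 of 15 and 25 of 25, and EIF4G3, a translation initiation scaffold, had 53 of 53, 131 of 132 and 34 of 34.

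**Figure D2:**
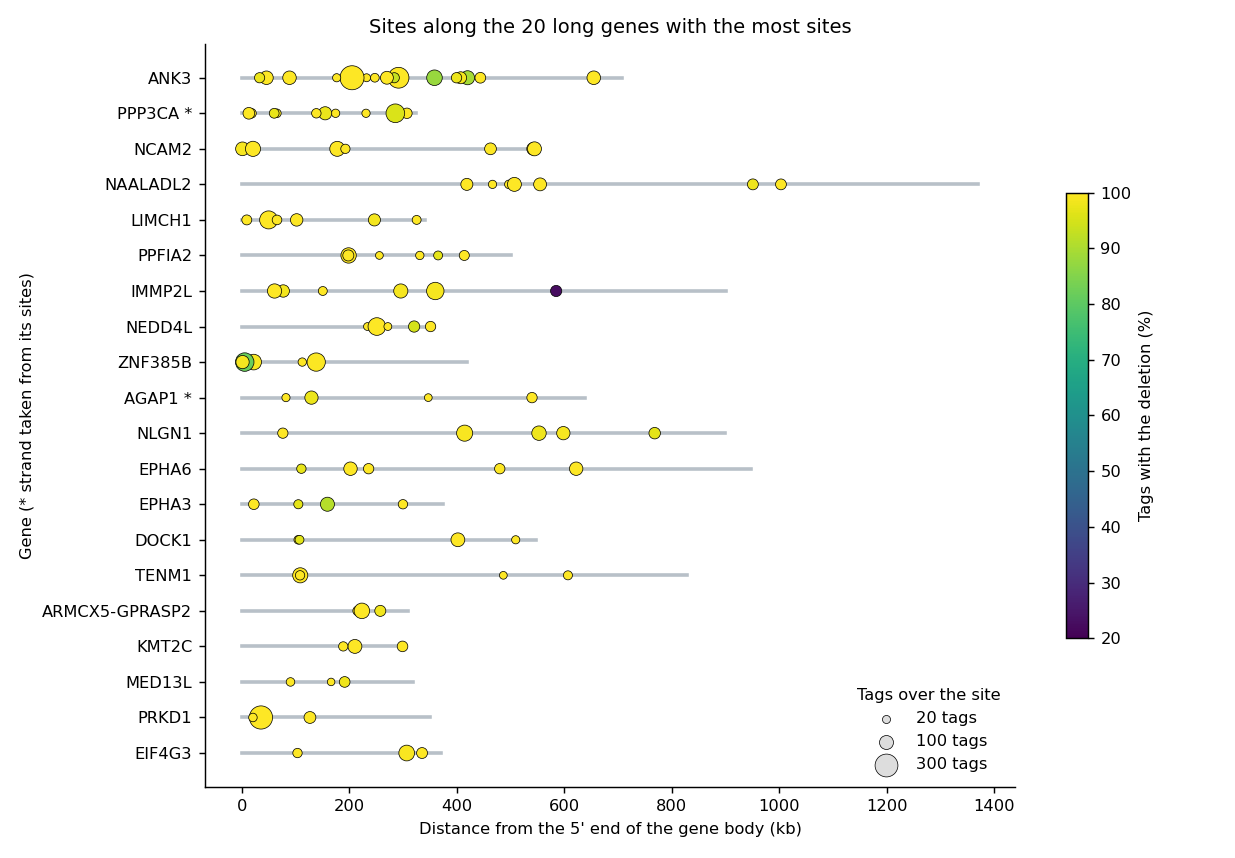
Sites along the 20 long genes with the most sites. Grey lines are gene bodies with distance from the 5′ end in kb on the x axis, circles are sites whose area grows with the tags over them, and colour is the percent of tags with the deletion; most circles are at or near 100%, and the dark one in IMMP2L is at 22.8%.

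The length limit fell between genes with 1 to 3 sites. Just inside lay NOS1AP (300785 nt, 1 site), KMT2C (301079 nt, 3 sites) and SIPA1L3 (301162 nt, 1 site). Just outside lay GHR (298440 nt), CHCHD3 (297221 nt) and XRCC4 (296927 nt), with 1 site each. Their lowest deleted shares were 92.9% in NOS1AP and 98.6% in GHR, and the other four were complete.

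Where the gene's strand was known, nearly all sites lay on it. Strand was known for 242 of the 289 sites, and 232 of these (95.9%, 92.5 to 98.0) lay on the gene's own strand. In shorter genes 1803 of 1898 did (exact interval 93.9 to 95.9%), so the intervals overlapped. All 133 pairs of neighbouring sites within a long gene shared a strand (100%, 97.3 to 100). Of the 28 genes of unknown strand, 7 held several sites, and in each of these all lay on 1 strand. The rest held 1 site each. The start windows used here gave no usable strand for these 28 genes, so their sites are not part of the 95.9%. Whether those sites lay on the gene's strand was not tested.

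Among genes of known strand, the 10 sites on the opposite strand were all in different genes. Most tags were found in DOCK4, another Rac exchange factor, with 209 of 210 deleted, and in DPP10, a regulator of potassium channels, with 185 of 193. ZFHX3, a transcription factor gene with 48 of 48 tags deleted, was the only one of the 10 with an annotated antisense RNA, ZFHX3-AS1, over the site. The other seven, in ARHGAP24, FRMD3, HECW1, NOS1AP, NPAS3, OPCML and SGCD, had 13 to 46 tags. Each of the 10 was its gene's only listed site.

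Along the gene, sites leaned to the 5′ side. Of the 232 sites on the gene's strand, 141 (60.8%, 54.2 to 67.1) lay in the 5′-most 50% of the body, against 836 of 1803 (46.4%, 44.0 to 48.7) in shorter genes. These intervals did not overlap; sites of 1 pool are not replicates, and no test was made. Of 10 equal parts of the body, the first 4 held 31, 28, 30 and 30 sites and the last 4 held 20, 16, 14 and 19, where an even spread gives 23.2 on average. In shorter genes the last part held the most, 217 sites or 12.0%, against 8.19% in long genes.

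The 3 classes of long genes each had a larger share on the 5′ side than any class of shorter genes, though some intervals overlapped. It came to 59.0% (49.0 to 68.5) at 300 to 500 kb, 60.8% (50.6 to 70.3) at 500 kb to 1 Mb and 68% (46.5 to 85.1) of 25 sites at 1 Mb or more. Genes under 20 kb had 50.6% (45.1 to 56.0), those of 20 to 100 kb 43.9% (40.6 to 47.3) and those of 100 to 300 kb 47.5% (43.4 to 51.6). With 1 site per gene the long genes gave 65.3% (55.9 to 73.8), and without the 15 genes of 4 or more sites 61.8% (53.6 to 69.6). For the 10 same-strand sites whose deleted share was below 90% it was 50% (18.7 to 81.3).

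Sites within 10 kb of an end were few, but 10 kb is a small part of a body of 300 kb or more. The count that an even spread would give there was not computed. In long genes the median distance from the 5′ end was 214 kb, 5 sites lay within 10 kb of it and 78 lay more than 300 kb away. Within 10 kb of the 3′ end there were 6. The nearest site to a 5′ end was that of NCAM2 at 1.32 kb, followed by that of ZNF385B at 1.46 kb.

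**Figure D3:**
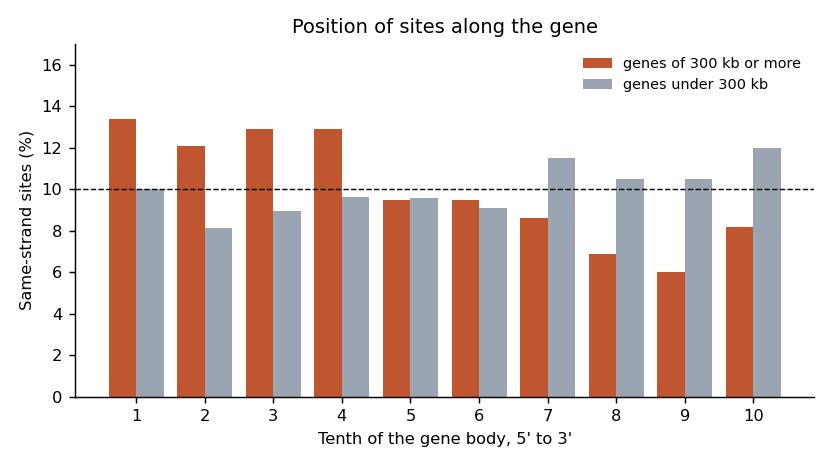
Position of sites along the gene body. The x axis gives 10 equal parts from the 5′ to the 3′ end and the y axis the percent of same-strand sites in each, for 232 sites in genes of 300 kb or more (orange) and 1803 in shorter genes (grey); the dashed line marks an even 10%. Long genes hold 13.4% in the first part and 6.03% in the ninth.

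Many long genes have several annotated starts, and RNA over a site upstream of an internal start must begin at an earlier one. RefSeq start windows listed several starts for 50 of the 118 long genes with a same-strand site. These 50 genes held 113 such sites, of which 47 (41.6%, 32.4 to 51.2) lay past the last start, in 46.7% of the summed gene length. Another 31 sites (27.4%) lay before the second start. The share of gene length before the second start was not computed, so whether this is many or few cannot be said. The table of starts is not complete, so these counts describe listed starts only.

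3 genes show how sites fell around an internal start. The 60 bases before each start are printed in lower case, 5′ to 3′ on the plus strand, and the start base in capitals. They are shown because all sites of the gene lay on 1 side of that start. The windows are chr3:174859274-174859334 for NAALADL2, chr18:58255456-58255516 for NEDD4L and chr3:97439547-97439607 for EPHA6.
NAALADL2: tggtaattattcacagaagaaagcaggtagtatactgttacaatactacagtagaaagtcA
NEDD4L: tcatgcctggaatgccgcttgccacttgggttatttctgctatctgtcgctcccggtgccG
EPHA6: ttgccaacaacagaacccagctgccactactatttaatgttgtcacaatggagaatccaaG

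The NAALADL2 start, the only one listed for the gene, lies 418 kb inside its annotated body. All 7 NAALADL2 sites lay after it, the first of them 281 nt downstream with 69 of 69 tags deleted, and none lay in the 418 kb before it. In NEDD4L the last of 5 listed starts lies 211 kb inside the gene, and all 5 sites lay after it, the nearest at 22542 nt. EPHA6 showed the opposite arrangement: its second start lies 625 kb inside, and all 5 sites lay before it, the nearest at 3040 nt. ANK3 lay between, with 3 of 16 sites before the second of 4 starts and 1 past the last. SMYD3, a lysine methyltransferase, held all 3 of its sites before its second start.

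Neighbouring sites were far apart. The 133 pairs within a long gene and strand had a median distance of 54558 nt (95% interval of the median 42830 to 75520), against 12506 nt (10491 to 15214) over 467 pairs in shorter genes, whose bodies are shorter by definition. None of the 133 lay within 50 nt and 2 within 1000 nt. Of the 467 pairs in shorter genes, 5 lay within 50 nt and 40 within 1000 nt. The closest pair, 362 nt apart, was in TENM1, with 120 and 34 tags that all carried the deletion. PPFIA2 followed at 516 nt, with 125 and 55 tags, again all deleted. The next were AGAP1 at 1528 nt, GSE1 at 2212 nt and DOCK1 at 2389 nt. Long-gene sites were thus single positions and not groups of adjacent bases, which also held for most pairs in shorter genes.

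The deletion was present in every tag at 208 of the 289 sites, or 72.0% (66.4 to 77.1). This held for 75.8% of all listed sites, 77.3% of those in protein-coding genes and 78.0% (76.2 to 79.7) of those in shorter protein-coding genes. The intervals of long and shorter genes overlapped only between 76.2% and 77.1%, and the difference was not tested. The share did not fall steadily with gene length. It was 74.2% (69.8 to 78.2) under 20 kb, 77.6% at 20 to 100 kb and 80.8% at 100 to 300 kb. In the long classes it was 73.4% at 300 to 500 kb, 68.1% at 500 kb to 1 Mb and 80.6% (62.5 to 92.5) at 1 Mb or more. Coverage was alike: a median of 55 tags (quartiles 32 and 99) over long-gene sites and 52 (29 and 92) over the others. Of the 81 sites with any undeleted tag, 48 missed the deletion in 1 tag only and 69 had a share of 90% or more.

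A share under 90% was found at 12 long-gene sites (4.15%, 2.16 to 7.14) and at 138 of the 2282 sites in shorter genes (6.05%, 5.10 to 7.10). The lowest was in IMMP2L, with 13 of 57 tags deleted (22.8%, 12.7 to 35.8), while the other five sites of that gene were between 98.6% and 100%. PDE4D, a cyclic AMP phosphodiesterase, had 25 of 86 (29.1%, 19.8 to 39.9). Both were below 40%, and their intervals overlapped.

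Higher shares were found in SORCS2, a sorting receptor, with 22 of 43 tags at 51.2% (35.5 to 66.7), and in SMYD3, with 13 of 22 at 59.1% (36.4 to 79.3). CDKAL1, a tRNA-modifying enzyme, LRBA, a trafficking protein, ZNF385B, FOCAD and the mitochondrial carrier SLC25A21 lay between 80.8% and 83.3%. ANK3 held 2 such sites, at 87.6% of 129 tags and 89.1% of 101. In SMYD3 and CDKAL1 the other sites of the gene were at 98.1% or more, so partial and near-complete sites occurred in 1 gene. Every long-gene site has at least 13 deleted tags, which limits how low a share is seen among them at low coverage.

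**Figure D4:**
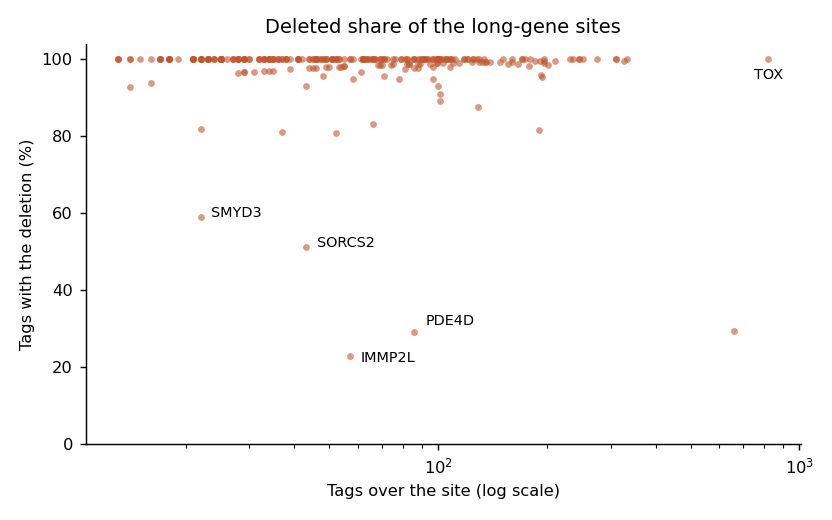
Tags over each of the 289 long-gene sites (x axis, log scale) against the percent of them with the deletion (y axis). Each point is 1 site; 277 points lie at 90% or more, and 4 sites of low share and the best covered site, in TOX, are named by gene.

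The sites with the most deleted tags were all complete or lacked 1 tag. TOX, an HMG-box protein gene on chromosome 8, had 819 of 819. The next was ANK3 with 334 of 334. SCFD2, of the Sec1 family of trafficking proteins, had 326 of 327. The adaptor GULP1 and the kinase PRKD1 had 310 of 310 each, the adhesion molecule CADM2 275 of 275 and the mitochondrial tRNA synthetase FARS2 251 of 251. STXBP5L, a relative of syntaxin-binding tomosyn, had 246 of 246, a second ANK3 site 245 of 245, and VPS13B, a lipid transfer protein, 236 of 236. Gene strand was unknown here for TOX, CADM2 and VPS13B, so whether these sites lay on the gene's strand was not tested. Tags exceeded 200 at 14 sites and 100 at 66. For 819 of 819 tags the exact 95% interval of the share was 99.6 to 100%.

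Functional groups were compared by how many of their members of 300 kb or more held a site, beside the 20.2% of all long genes. In 14 lists 438 long genes stood, 90 of them in several lists. Every list had a median of 0 sites per Mb over its members, as had all long genes, because most members had none. No list was tested, the lists were not matched for gene length, and the values describe this pool.

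Of the long adhesion genes, 11 of 59 held a site (18.6%, 9.69 to 30.9), with 26 sites in all. Beside NCAM2, NLGN1 and TENM1, CNTN5 and IL1RAPL1 held 2. The axon guidance list had 3 of 23 (13.0%, 2.78 to 33.6): EPHA6, EPHA3 and ROBO1. Ion channels and receptors had 3 of 51 (5.88%, 1.23 to 16.2), namely the potassium channel gene KCNMA1 with 2 sites, the calcium channel subunit CACNB2 and the bicarbonate transporter SLC4A4 with 1 each. This was the lowest share of the 14 lists, and its 27.5 Mb held 0.145 sites per Mb, against 0.669 in all long genes.

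Intracellular regulators lay near the background. Small GTPase regulators had 9 of 33 (27.3%, 13.3 to 45.5), led by AGAP1, DOCK1 and STARD13. Kinases, phosphatases and phosphodiesterases had 12 of 53 (22.6%, 12.3 to 36.2), led by PPP3CA, PRKD1 and PRKCE. Transcription and chromatin genes had 16 of 66 (24.2%, 14.5 to 36.4), led by ZNF385B with 5 sites and CUX1, MED13L, NFIA and SMYD3 with 3. Cytoskeleton and muscle complex genes had 11 of 50 (22%, 11.5 to 36.0); ANK3 and LIMCH1 held 22 of their 32 sites, and DMD held none while its relative UTRN held 1.

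Ubiquitin and membrane traffic genes had 13 of 39 (33.3%, 19.1 to 50.2), among them NEDD4L with 5, the F-box gene FBXL17 with 3 and STXBP5L with 3. Genes of glycan and proteoglycan synthesis had 6 of 21 (28.6%, 11.3 to 52.2), with 3 complete sites in the glypican gene GPC6. RNA-binding proteins had 3 of 13 (23.1%, 5.04 to 53.8): EIF4G3 with 3 sites and MSI2 and SND1 with 2 each. Genes at common fragile sites, which are very long by nature, had 12 of 38 (31.6%, 17.5 to 48.7), including FHIT and WWOX with 1. Their median length was 1094 kb, against 450.2 kb for all long genes. They held 0.541 sites per Mb, against 0.669 in all long genes.

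Genes altered in prostate cancer had 10 of 21 (47.6%, 25.7 to 70.2), the highest share of the lists. Their median length was 1158 kb, against 450.2 kb for all long genes. Of all genes of 1 Mb or more, 29.0% (18.7 to 41.2) held a site. The 10 were NAALADL2 and IMMP2L, which are also fragile site genes, KMT2C with 3 sites, and CADM2, FOXP1, INPP4B, NCOA2, PDE4D, ROBO1 and ZFHX3 with 1 each. The ZFHX3 site lay on the strand opposite to the gene and under ZFHX3-AS1, and gene strand was unknown for CADM2 and NCOA2. The list was written with earlier results for some of these genes known, which makes its count no independent evidence. Counting only sites whose deleted tags exceeded the median of all listed sites, it was 4 of 21, where 106 of the 773 long genes (13.7%) had such a site.

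Markers of other cell types had shares whose intervals included the 20.2% of all long genes. Neuronal markers had 5 of 50 (10%, 3.33 to 21.8) in 46.6 Mb: STXBP5L with 3, and CSMD1, NRXN3, OPCML and RALYL with 1 site each. The OPCML site lay on the strand opposite to the gene. That of CSMD1 also lay in the noncoding gene LOC105377785, and gene strand was unknown for CSMD1 and RALYL. Muscle, stromal and blood markers had 3 of 23 (13.0%, 2.78 to 33.6), namely GPC5, KCNQ1 and SGCD. The SGCD site was on the opposite strand, and the KCNQ1 site lay in the noncoding gene KCNQ1OT1. Density was 0.150 and 0.185 per Mb in these 2 lists.

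**Figure D5:**
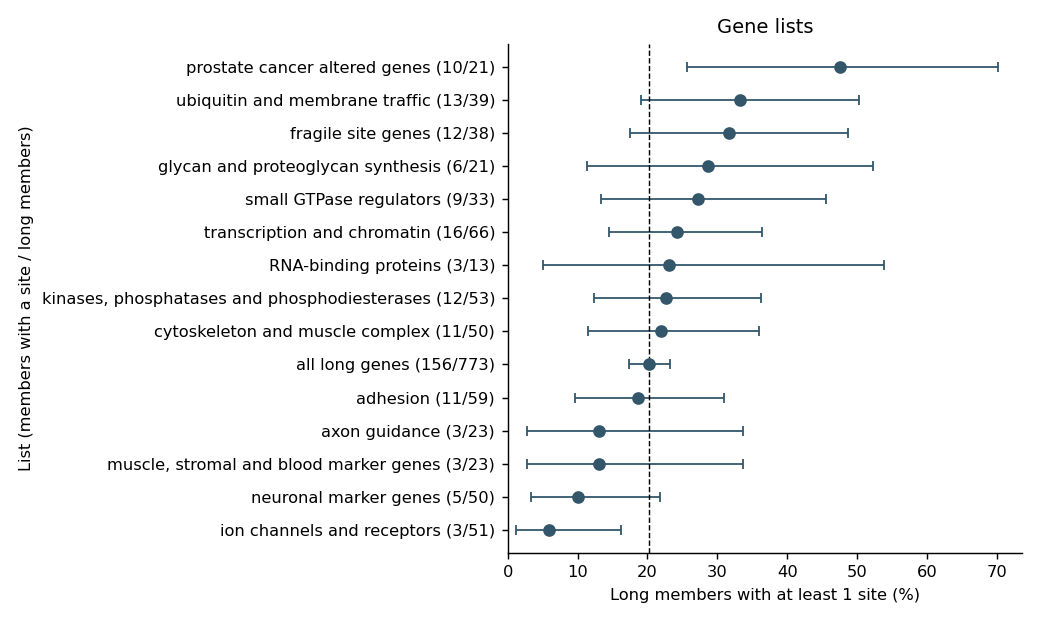
Percent of the members of 300 kb or more with at least 1 site in each of 14 gene lists and in all long genes, with exact 95% intervals as bars; the numbers are members with a site over long members, and the dashed line is the 20.2% of all long genes. Ion channels and receptors are lowest at 5.88% and prostate cancer altered genes highest at 47.6%.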

How the data were processed

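The authors deposited 1 list of single-base sites pooled over the libraries, named as unique tags with deletions from crosslink-induced mutation site (CIMS) analysis at an FDR of 10 percent. Its values are counts as deposited, without normalization: tags with the deletion and, in the site's name, tags over it. Build hg38 and the tools BWA 0.7.17, cutadapt, UMI-tools and SAMtools are listed in the submitters' processing notes, without their roles; CIMS settings were not found there. Depth per library is unknown.

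Sites were placed in gene bodies of the RefSeq table of GRCh38.p14 (58961 of 59792 rows, 19866 protein-coding genes), each in the shortest protein-coding gene over it. Gene strand and starts came from RefSeq start windows, which matched 625 of the 773 long genes. Density used bases not under a shorter protein-coding gene. Intervals are exact 95% intervals for counting error and treat tags or sites as independent. Members and gene lists were chosen with earlier results of these data known. The rule for naming took the 20 long genes holding most sites, the 10 highest in deleted tags and 10 lowest in deleted share among sites, the 10 longest genes, those at the length limit, the closest pairs and the leading list members; others were named after their values were seen. Some results that this rule picks are not reported here. Gene assignment, strand and position were tested on simulated data. Exon, splice site and motif comparisons over all sites were not run here. Python 3.11.15, numpy 2.4.6, pandas 2.3.3, scipy 1.17.1 and matplotlib 3.10.9 were used.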

Additional observations from a re-analysis of the deposited data

How the results depend on the processing

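No paired analysis was possible because both libraries belong to 1 group and are pooled in 1 list; leaving out a library was not possible either. A length limit of 200 kb gave 496 sites in 306 genes at 0.856 per Mb, and 500 kb gave 150 in 73 at 0.580. Sites with more deleted tags than the list's median numbered 156 (0.361 per Mb), with 63.5% complete, a median of 96.5 tags and 98.5% on the gene's strand; ion channel, kinase, transcription, cytoskeleton, prostate cancer and neuronal lists then had 1, 4, 10, 5, 4 and 3 members with a site, where all long genes went from 156 to 106 with a site. This setting for the lists was added after the data had been seen, as was leaving out the genes with 4 or more sites. Sites with a deleted share under 0.9 numbered 12 in 11 genes (0.0278 per Mb), with 100% on the gene's strand and 50% in the 5′-most 50%. With 1 site per gene, 156 sites (0.361 per Mb) had a median of 81 tags and 92.2% lay on the gene's strand. By construction these settings change counts. The other 55 of 81 values stayed within their interval or within 1.5 times the count. For the share under 0.9 a complete share and a spacing could not be given, nor a spacing for 1 site per gene. Planned exon and sequence alternatives were not run.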

Other observations

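A further 7 sites lay in a long gene and also in a shorter protein-coding gene nested in it, and were not counted above; all 7 had the deletion in every tag. The best covered, with 117 tags, lay on the plus strand in MACROD2, the strand of that gene and opposite to the nested FLRT3. The ATG7 site with 49 tags lay on the strand of ATG7, opposite to VGLL4. In SUMF1 the 65-tag site lay on the strand of the nested SETMAR and opposite to SUMF1. The other four, in DIP2C, ATP9B and LRRC37A2, lay on a strand that the long and the nested gene share.

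By chromosome, long-gene sites were most numerous on chromosome 3, with 38 in 18 of 69 long genes, followed by chromosomes 4 and 10 with 28 each. On chromosome 21 all 7 sites were in NCAM2, 1 of 7 long genes there, and on chromosome 20 there were 2 sites in 1 of 12. Chromosome 5 held 10 sites in 8 of 50 long genes.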
